A study of Mus musculus with 24 samples.

Results

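The comparison described here is the loss of U11, the small nuclear RNA encoded by Rnu11, in the mouse forelimb bud at E10.5 (days of embryonic development). It rests on 6 of the 24 total RNA libraries of the series: 3 titled as mutant forelimb and 3 titled as WT forelimb of that stage, taken by their titles. All embryos were labelled C57/Bl6 and homozygous for a floxed U11 allele (U11flx/flx). Mutants carried Prrx1-Cre (U11flx/flx::Prrx1-Cre+) and the embryos called WT did not (U11flx/flx::Prrx1-Cre-), so the controls share the floxed alleles and differ by the absence of Cre. Prrx1-Cre is active in the limb bud mesenchyme, and surface ectoderm, blood, endothelium and incoming muscle precursors keep an intact gene. The 6 E10.5 hindlimb libraries of the same genotypes shared the estimate of the spread, and the E11.5 forelimb libraries were used for a comparison of stages. The embryo behind each library, and any pooling of buds, is not stated in the labels, so p-values speak only of the spread among these libraries, which may be technical. Levels below are TPM (a transcript share corrected for gene length), brought in every library to the same median over 4168 genes that reached 5 TPM in all 12 E10.5 libraries. A log2 change is the mutant minus WT difference of the mean log2(TPM + 1), given with the standard error of the fit, which makes it smaller than the ratio of the levels for low genes.

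Most introns are removed by the major spliceosome, and a small class with a different, highly conserved 5′ splice site and branch point is removed by the minor spliceosome. U11 pairs with the 5′ splice site of these minor introns, U12 with the branch point, and both work as one particle, with U4atac, U6atac and U5 completing the machinery. The forelimb bud at this stage is a core of proliferating mesenchyme under ectoderm, patterned by FGFs of the apical ridge, by Sonic hedgehog from the posterior margin, by retinoic acid from the flank and by the posterior HoxA and HoxD genes. Splicing itself cannot be read from gene-level TPM, and what follows concerns gene levels only.

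The 6 libraries were not of one kind, and this precedes every result. Forelimb identity is marked by Tbx5, and hindlimb identity by Tbx4, Pitx1, Isl1 and the genes Hoxc9 to Hoxc11. Mutant replicate 3 had Isl1 at 10.4 TPM, against 0.158 to 0.620 TPM in the other 5 forelimb libraries and 4.35 to 15.4 TPM in the hindlimb libraries. Its Hoxc10 was 4.62 TPM (other forelimbs 0 to 0.397 TPM), its Hoxc11 was 2.19 TPM (0 to 0.198 TPM), and its Pitx1 was 1.80 TPM (0 to 0.107 TPM), while hindlimb libraries began at 6.61, 1.13 and 7.35 TPM for these genes. Hindlimb genes were thus present in this library at between 14.6% (Pitx1) and 120.6% (Hoxc11) of their mean in hindlimb mutants. Its Tbx5 was the lowest of the 6 at 2.14 TPM, but WT replicate 1 was nearly as low at 2.62 TPM. Tbx5 reached 11.7 TPM in the other forelimb libraries and at most 0.446 TPM in hindlimb. Other genes stood apart there too. Aldh1a2, which makes retinoic acid in the flank, was 10.3 TPM (at most 1.86 TPM in the other forelimbs, 7.85 to 17.4 TPM in hindlimb). Meox1, a somite gene, was 12.1 TPM (at most 4.43 TPM, and 2.25 to 11.4 TPM in hindlimb). Fabp7, a gene of glia and neural progenitors, was 11.4 TPM (at most 0.311 TPM, and at most 0.603 TPM in hindlimb). Aldh1a2 thus lay within the hindlimb range and Meox1 just above, at 85.6% and 393.7% of their means in hindlimb mutants. Limb bud mesenchyme genes were low in mutant replicate 3: Lhx9 was 7.04 TPM against 22.7 to 25.9 TPM, and Tbx15 was 2.93 TPM against 8.87 to 13.7 TPM. It held both Xist (9.50 TPM) and the Y-linked Ddx3y (7.68 TPM), whereas mutant replicate 1 had Xist at 33.2 TPM with Ddx3y at 0 and the other 4 had Ddx3y at 10.4 to 12.2 TPM with Xist at 0.0297 to 1.54 TPM. The library is therefore called mutant replicate 3 by its label only. Values without it are given for part of the lists and genes below. WT replicate 1 differed in another way: 21886 gene symbols were listed at 0 in it, against 11717 to 17292 in the other 5. Its correlations with them were 0.919 to 0.932 where all other pairs reached 0.945 to 0.966. It gave the lowest of the 6 values for 39.1% of tested genes and the highest for 23.4%, the largest share on either side. Nuclear protein-coding genes held 14.9% to 23.6% of TPM in the 6 libraries, the lowest share in mutant replicate 3.

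**Figure D1:**
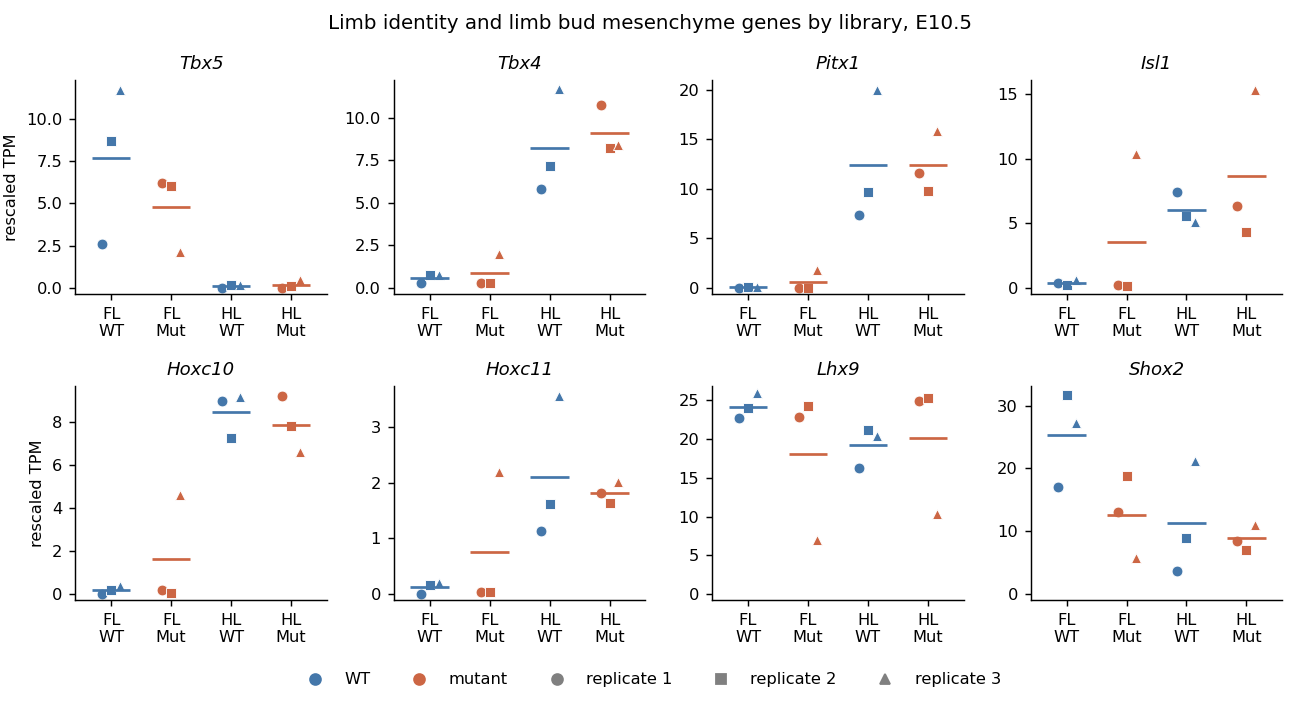
Rescaled TPM of limb identity genes and of the limb bud genes Lhx9 and Shox2 in the 12 E10.5 libraries, by limb (FL forelimb, HL hindlimb) and genotype; each point is 1 library, shapes give the replicate number and bars the group mean. The triangle of the FL Mut group (replicate 3) lies among or toward the hindlimb libraries for Isl1 (10.4), Hoxc10 (4.62) and Hoxc11 (2.19). It lies below the other forelimb libraries for Lhx9 (7.04), and only just below WT replicate 1 for Tbx5 (2.14 against 2.62).

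The targeted gene was examined first. Rnu11 is a single exon of 134 bases on the minus strand of chromosome 4 (GRCm38, 132270080 to 132270213). Its sequence is shown because it is the RNA removed in these mutants; the capitals, positions 3 to 7 from its 5′ end, are the reverse complement of CCTTT, which belongs to the conserved 5′ splice site of minor introns.
Rnu11: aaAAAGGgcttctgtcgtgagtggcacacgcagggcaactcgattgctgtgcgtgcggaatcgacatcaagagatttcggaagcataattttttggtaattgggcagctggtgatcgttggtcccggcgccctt

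Rnu11 was 292, 798 and 1237 TPM in WT and 184, 109 and 570 TPM in mutants. The groups overlapped, since mutant replicate 3 lay above WT replicate 1. The mutant mean was 37.1% of the WT mean (776 ± 473 TPM in WT and 288 ± 248 TPM in mutants, SD, n = 3 each), a log2 change of -1.55 ± 0.60. An exact two-sided permutation test on the log2 values gave p = 0.2, where 3 against 3 libraries cannot go below 0.1, and the limma adjusted p over all 11955 tested genes was 0.905. Leaving out mutant replicate 3 gave a mutant mean of 18.8% of WT and a log2 change of -2.23, and the exact permutation p was again 0.2. The unadjusted limma p, which applies to a gene named in advance, was 0.0248 with all libraries and 0.00150 without mutant replicate 3, when both remaining mutants lay below all WT libraries. The permutation test could not have passed 0.05 at this size and says nothing either way. Because the libraries are bulk tissue, fewer cells with the RNA and less RNA per cell cannot be told apart, for this gene or any other below.

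Gm28872, an annotated long noncoding RNA at 132270056 to 132270213 on the plus strand of chromosome 4, holds all 134 bases of Rnu11 in antisense. It was 208, 321 and 188 TPM in WT and 50.8, 28.9 and 107 TPM in mutants, and the 3 mutant values all lay below the 3 WT values. Its log2 change was -2.08 ± 0.42 with an unadjusted p of 0.000432 and an adjusted p of 0.360, so it was not called, although it was on the deposited scale (adjusted p = 0.0129) and in a fit of all 24 libraries (0.0213). The strand that was counted is not given in the sources used here, so reads of this pair cannot be assigned with certainty to either symbol. Rnu12, which encodes the partner RNA U12, was 267, 497 and 1025 TPM in WT and 492, 293 and 816 TPM in mutants (-0.07 ± 0.49, adjusted p = 0.994), with full overlap. Replicate 3 was the highest of its group for both Rnu11 and Rnu12 in WT and in mutant forelimb.

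**Figure D2:**
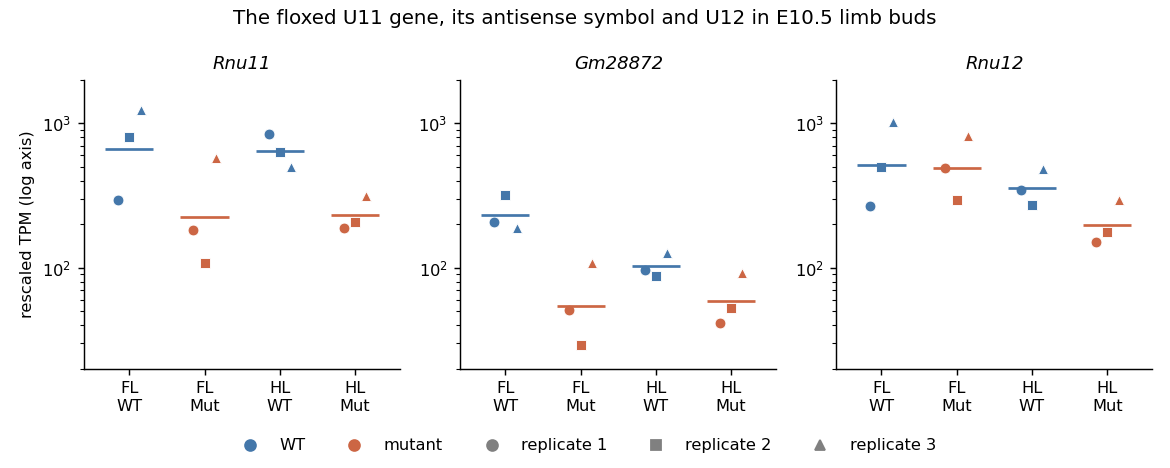
Rescaled TPM, on a log axis, of Rnu11, its antisense symbol Gm28872 and Rnu12 in the 12 E10.5 libraries; each point is 1 library and bars are geometric means. Forelimb mutants run from 109 to 570 TPM for Rnu11 against 292 to 1237 TPM in WT and overlap them, whereas for Gm28872 all 3 mutants (28.9 to 107 TPM) lie below the 3 WT libraries (188 to 321 TPM).

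Across the 11955 genes tested, 3 passed an adjusted p of 0.05 in limma, which is 0.0251% of them: 2 fell and 1 rose. Unadjusted p-values under 0.05 were found for 626 genes (5.24%), 333 higher (2.79%) and 293 lower (2.45%). Without mutant replicate 3 no gene was called, and 1.62% of genes were higher and 1.68% lower at an unadjusted p under 0.05. Mutant and WT values did not overlap for 635 genes that were higher (5.31%) and 607 that were lower (5.08%). Without any effect, a p under 0.05 is expected for a share of 0.05 of genes. Groups of 3 and 3 that do not overlap are then expected for a share of 0.1, both directions together. The counts were near these shares. The 3 calls were lost when any 1 of the 6 forelimb libraries was left out: no gene passed without WT replicate 1 or 3 or without mutant replicate 1, 2 or 3, and without WT replicate 2 another symbol, Gm24507, passed alone. The changes stayed of like size in these fits, from -0.75 to -0.68 for Capns1 and from 3.35 to 4.21 for Gm17530. On the deposited scale without mutant replicate 3, Gm28037, Gm17530 and Gm28872 were called. Every gene named below other than Capns1, Gm28037 and Gm17530 is therefore described by its values and was not called in E10.5 forelimb in the fit of 12 libraries.

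Capns1, which encodes the small regulatory subunit shared by the calcium-dependent proteases calpain 1 and calpain 2, fell. It was 29.8, 27.1 and 28.4 TPM in WT and 17.1, 16.8 and 16.9 TPM in mutants. The libraries of each genotype lay within 3 TPM of one another and far from the other genotype, mutant replicate 3 and WT replicate 1 included. The log2 change was -0.71 ± 0.09 (limma adjusted p = 0.0301; 0.596 times the WT mean), and over the 21 alternative settings it ranged from -0.90 to -0.67 with adjusted p from 0.00930 to 1, past the threshold in 4 of them and not on the deposited scale (adjusted p = 1). In E10.5 hindlimb the log2 change was -0.60, and the difference between limbs was not called (adjusted p = 1). When all 24 libraries were put on one scale, Capns1 was 19.9 to 32.2 TPM in the 12 WT libraries and 8.74 to 19.2 TPM in the 12 mutant libraries, and it was the 1 tested gene whose mutant libraries all lay below all WT libraries over both limbs and stages; no gene lay above in all. The antisense symbol Gm26810, which overlaps Capns1 on chromosome 7 (30186936 to 30198811, minus strand), was at most 0.217 TPM, so it adds little to the Capns1 value. Of the other tested calpain genes, Capn6, a family member without protease activity, was 86.0, 100.1 and 93.6 TPM in WT and 73.8, 85.8 and 33.2 TPM in mutants (-0.64 ± 0.35, adjusted p = 0.905, -0.23 without mutant replicate 3), and Capn2, the catalytic partner of Capns1, changed by -0.02 ± 0.23.

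The other calls were predicted genes with features that limit their reading. Gm28037, on chromosome 16 on the plus strand, was 71.8, 124 and 65.4 TPM in WT and listed at 0 in all 3 mutants (adjusted p = 0.0301). It was also listed at 0 in the 3 E10.5 hindlimb WT libraries and in the 6 E11.5 WT libraries, so WT levels above 0 were seen in the E10.5 forelimb group alone. Among E10.5 mutants it was 11.9 TPM in hindlimb replicate 2 and 0 in the others. Gm28037 met the filter of 1 TPM in 3 libraries only through the forelimb WT group, so its p-value is no support for the difference. It is a read-through model: 78.3% of its 31-base words also occur in Rpl24, a ribosomal protein gene on the same strand, which was 269, 203 and 209 TPM in WT and 394, 292 and 422 TPM in mutants (0.70 ± 0.21, adjusted p = 0.829). How reads were divided between the 2 symbols is not given in the sources used here. Gm17530, a predicted gene on chromosome 9, was 0, 1.44 and 1.20 TPM in WT and 32.4, 28.9 and 11.9 TPM in mutants (3.74 ± 0.48, adjusted p = 0.0301). At E11.5 in forelimb its order was the other way. On the scale of all 24 libraries it was 31.5, 43.5 and 1.74 TPM in WT and 1.66, 0.872 and 0.496 TPM in mutants there.

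**Figure D3:**
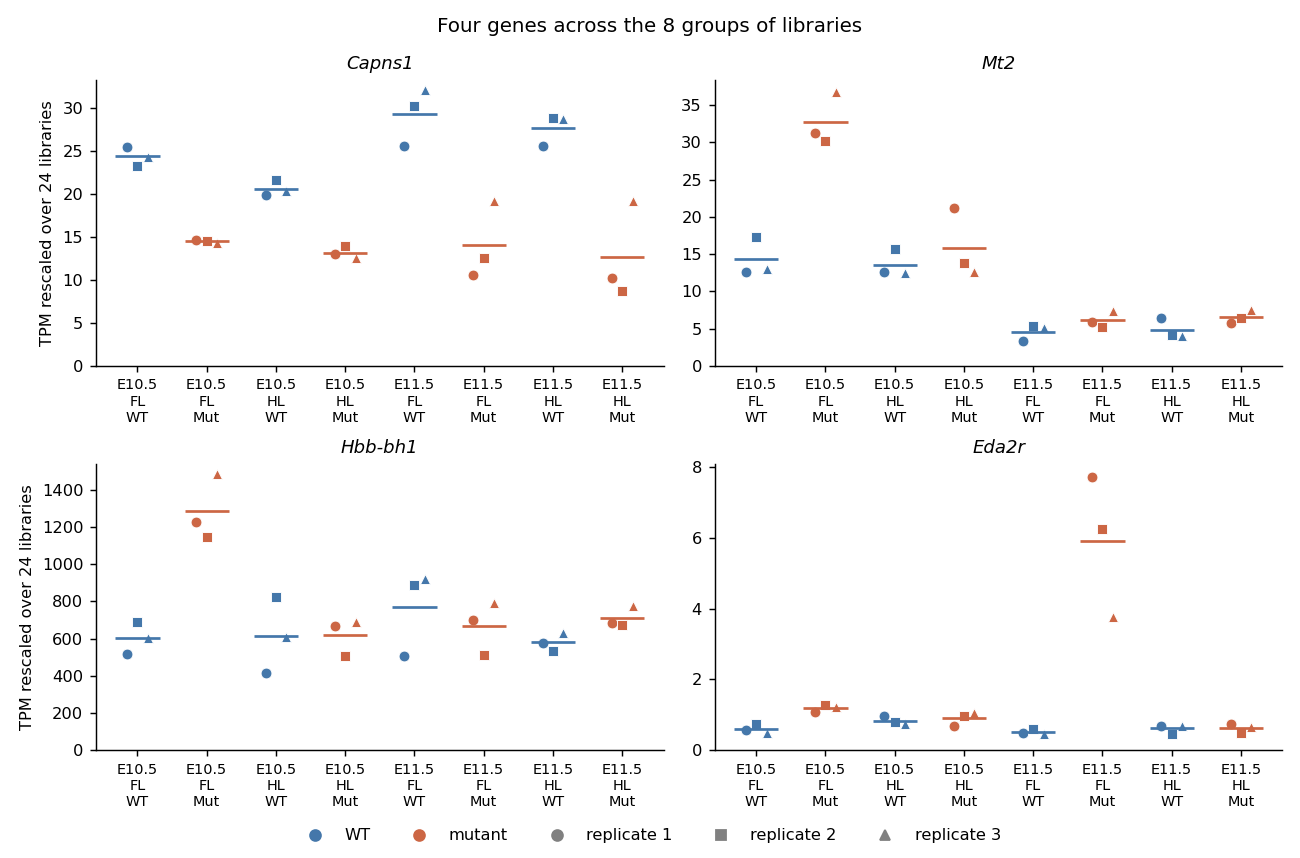
TPM rescaled over all 24 libraries for Capns1, Mt2, Hbb-bh1 and Eda2r in the 8 groups of 3 libraries (points are libraries, bars group means). Capns1 lies lower in all 12 mutant libraries (8.74 to 19.2) than in any WT library (19.9 to 32.2), E10.5 forelimb mutants lie above all other libraries for Mt2 (30.1 to 36.8, others at most 21.2) and Hbb-bh1 (1145 to 1484, others at most 920.3), and Eda2r is high in E11.5 forelimb mutants (3.75 to 7.71).

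Among protein-coding genes the largest differences upward, from 127 genes that met the naming rule (unadjusted p under 0.05, no overlap, higher group mean 5 TPM or more), included metallothionein and globin genes. Metallothioneins are small cysteine-rich proteins that bind zinc and copper, and their promoters carry metal response elements. Mt2 was 14.8, 20.02 and 15.1 TPM in WT and 36.3, 34.8 and 43.5 TPM in mutants. All 3 mutants were well above all WT libraries, 2.30 times the WT mean, with a log2 change of 1.16 ± 0.19, an unadjusted p of 6.7e-05 and an adjusted p of 0.159; it was called in the fit of all 24 libraries (0.0213). Its neighbour Mt1 was 17.9, 26.9 and 18.6 TPM in WT and 44.2, 40.7 and 37.4 TPM in mutants (0.94 ± 0.36, adjusted p = 0.905). Without mutant replicate 3 the log2 changes were 1.06 and 0.99. In E10.5 hindlimb they were 0.20 and 0.46, and the difference between limbs was not called for either gene (adjusted p = 1).

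The promoters of this pair are shown because the 2 genes lie side by side on chromosome 8 and were high in the same 3 libraries. The windows run from 250 bases before to 50 bases after the gene start (RefSeq, GRCm38.p6), at chr8:94178839-94179138 for Mt1 and chr8:94172368-94172667 for Mt2, both on the plus strand. Capitals mark matches, on either strand, to TGCACNC or TGCGCNC, the core of the metal response element.
Mt1: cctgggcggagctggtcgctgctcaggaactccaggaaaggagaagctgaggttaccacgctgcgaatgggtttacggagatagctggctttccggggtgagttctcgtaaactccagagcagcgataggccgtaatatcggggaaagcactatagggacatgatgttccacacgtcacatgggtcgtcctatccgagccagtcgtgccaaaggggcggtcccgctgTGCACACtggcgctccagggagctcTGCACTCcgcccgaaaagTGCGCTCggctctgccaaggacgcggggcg
Mt2: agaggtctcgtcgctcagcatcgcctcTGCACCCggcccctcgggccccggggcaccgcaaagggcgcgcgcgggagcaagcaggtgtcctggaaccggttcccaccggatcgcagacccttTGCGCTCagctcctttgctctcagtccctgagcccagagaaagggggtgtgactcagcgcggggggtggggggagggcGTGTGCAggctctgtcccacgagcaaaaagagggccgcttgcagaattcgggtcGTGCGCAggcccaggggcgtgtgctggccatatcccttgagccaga

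Mt1 held 3 matches, 2 of TGCACNC and 1 of TGCGCNC, and Mt2 held 4, with 2 of each. Of 27025 mouse promoter windows of the same length, 25.6% held at least 1 match, 2.00% held 3 or more and 0.503% held 4 or more. A match describes these letters and not a bound site.

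Lin28a, an RNA-binding protein that blocks maturation of let-7 microRNAs and declines as the limb bud ages, was 5.85, 2.87 and 2.39 TPM in WT and 11.1, 6.10 and 11.1 TPM in mutants (1.18 ± 0.32, adjusted p = 0.803; 1.05 without mutant replicate 3). Mutant replicate 2 lay barely above WT replicate 1. At E11.5 it was 0.642 to 0.684 TPM in forelimb WT on the scale of all 24 libraries, where the E10.5 forelimb WT libraries were 2.06 to 5.02 TPM. Whether the buds of the groups differed in age within E10.5 was not tested. In E10.5 hindlimb Lin28a was higher, at 15.6 to 28.6 TPM in WT and 25.3 to 36.5 TPM in mutants. The part of hindlimb tissue in the value of mutant replicate 3 was not tested either. The remaining genes were Vps45, a regulator of endosomal vesicle fusion (2.62, 4.18 and 2.88 TPM against 6.40, 8.77 and 7.17 TPM; 1.01 ± 0.25), and Rpp40, a protein subunit of RNase P (3.00, 6.32 and 6.30 TPM against 12.6, 9.91 and 10.3 TPM; 0.99 ± 0.24). Usp50, an inactive member of the ubiquitin protease family, was 13.7, 24.5 and 19.3 TPM in WT and 43.5, 26.5 and 40.2 TPM in mutants (0.91 ± 0.25). Adjusted p-values of these 3 were 0.698, 0.698 and 0.812. Usp50 overlaps Usp8 on the opposite strand, which was 7.17 to 10.48 TPM in WT and 7.35 to 9.53 TPM in mutants.

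Erythroid genes lay mostly higher. Of 21 tested members, 17 were higher and 4 lower, 7 had an unadjusted p under 0.05 (all higher, where 2.79% of all genes were) and 12 did not overlap (all higher, against 5.31%); none was called. The median log2 change was 0.41 against 0.02 over all tested genes, and 0.50 without mutant replicate 3. Hbb-bh1, an embryonic beta-type globin of primitive red cells, was 603, 801 and 700 TPM in WT and 1425, 1320 and 1755 TPM in mutants (1.10 ± 0.26, unadjusted p = 0.00139, adjusted p = 0.640). Hbb-y, the other embryonic beta-type globin, was 1116, 1313 and 1334 TPM against 2152, 2126 and 2616 TPM (0.87 ± 0.29). Each mutant library thus held more of both globins than any WT library. Hba-a2, an alpha globin, was 124, 274 and 310 TPM against 413, 400.2 and 534 TPM (1.02 ± 0.46), a change of 0.61 without WT replicate 1 and 0.48 without that library and mutant replicate 3. Klf1, the transcription factor that drives globin genes, was 1.04, 1.02 and 1.19 TPM against 2.26, 1.74 and 1.78 TPM (0.49 ± 0.15), and Alas2, the first enzyme of erythroid haem synthesis, was 7.66, 8.24 and 6.49 TPM against 11.9, 13.3 and 11.2 TPM (0.64 ± 0.29). The summed level of the 26 erythroid genes present was 2433 to 3423 TPM in forelimb WT, 5279 to 6579 TPM in forelimb mutants and 1666 to 4109 TPM over the 6 hindlimb libraries. The difference between limbs had an unadjusted p under 0.05 for Hbb-bh1, Car2 and Hbb-bt (0.0170, 0.0177 and 0.00902) and was called for none. These markers are those of blood itself, and the part of blood content in their levels was not tested.

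Among the 125 genes that met the same rule downward, several are known from limb patterning. Hand2, a transcription factor that sets posterior identity and helps to switch on Shh, was 6.95, 10.999 and 14.8 TPM in WT and 5.18, 5.92 and 3.75 TPM in mutants (-0.96 ± 0.36, unadjusted p = 0.0200, adjusted p = 0.905). Cyp26b1, which degrades retinoic acid in the distal bud, was 3.53, 4.86 and 9.001 TPM against 3.32, 3.28 and 1.32 TPM (-0.87 ± 0.32), so that 2 of the mutants lay just under the lowest WT library. Mab21l2, a gene of the limb and eye, was 5.32, 11.6 and 13.8 TPM against 3.31, 4.67 and 3.11 TPM (-1.18 ± 0.48). Without mutant replicate 3 these changes were -0.82, -0.59 and -1.11, in the same direction. Dusp7, a phosphatase of the ERK kinases, was 13.8, 12.3 and 17.5 TPM against 8.62, 7.31 and 6.71 TPM (-0.86 ± 0.28, adjusted p = 0.905). Cacna1g, a T-type calcium channel, was 3.78, 4.12 and 8.97 TPM against 2.94, 2.51 and 1.36 TPM (-0.97 ± 0.33). A pair of genes was highest in WT replicate 1: Rgp1, of a trafficking complex of the Golgi, was 25.6 TPM there and 7.71 and 7.92 TPM in the other WT libraries (mutants 5.27 to 6.52 TPM), and Adgrl3, an adhesion receptor, was 13.6 TPM there and 7.49 and 5.51 TPM in the others (mutants 2.68 to 5.30 TPM). Hist2h2aa2, a histone H2A gene, was 329, 470 and 287 TPM against 41.8, 119 and 125 TPM (-2.04 ± 0.72), but all of its 31-base words occur also in Hist2h2aa1, so the division of reads between the 2 copies is uncertain.

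The posterior Hox genes specify the forearm and the hand plate. All 10 tested HoxA and HoxD members from paralog groups 8 to 13 had a lower mean log2 level in mutants, 2 with an unadjusted p under 0.05 and without overlap (background 2.45% and 5.08%), and none was called. The median log2 change was -0.43, and -0.33 without mutant replicate 3, when 8 of 10 were lower. Hoxd11, needed for the radius and ulna, was 9.53, 11.7 and 15.4 TPM in WT and 7.13, 6.41 and 7.09 TPM in mutants (-0.72 ± 0.25, unadjusted p = 0.0134, adjusted p = 0.905; -0.75 without mutant replicate 3). Hoxa10 was 23.0, 23.7 and 25.9 TPM against 18.3, 20.4 and 14.3 TPM (-0.45 ± 0.16, unadjusted p = 0.0195; -0.32 without mutant replicate 3). In both genes every mutant library lay below every WT library. The digit genes varied within the groups instead: Hoxa13 was 0.106, 4.13 and 8.61 TPM in WT and 0.248, 0.625 and 3.56 TPM in mutants (-0.85 ± 0.73), and Hoxd13 was 1.71, 4.57 and 12.5 TPM against 1.79, 2.29 and 5.05 TPM (-0.62 ± 0.54). Replicate 3 was the highest and replicate 1 the lowest in both genotypes for these 2 genes, and at E11.5 Hoxa13 reached 18.2 TPM in forelimb WT on the scale of all 24 libraries. In E10.5 hindlimb the median change of the 10 genes was 0.02, and no difference between limbs was called.

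Genes of the hedgehog pathway and the posterior mesenchyme were mostly lower. Of 16 tested, 15 were lower and 1 higher, 2 with an unadjusted p under 0.05 (Osr1 and Hand2, background 2.45%) and 3 lower without overlap (background 5.08%), none was called, and the median was -0.19 (-0.27 without mutant replicate 3). Shh itself was below the filter, at 0.232, 0.646 and 1.47 TPM in WT and 0.206, 0.180 and 1.06 TPM in mutants. Osr1, a zinc finger transcription factor of the proximal mesenchyme, was 3.08, 3.37 and 5.50 TPM against 1.71, 2.28 and 2.09 TPM (-0.69 ± 0.24; -0.72 without mutant replicate 3). Grem1, the BMP antagonist that links Shh to the ridge FGFs, was 4.96, 7.14 and 6.66 TPM against 3.85, 4.65 and 2.24 TPM (-0.69 ± 0.32, unadjusted p = 0.0513; -0.47 without mutant replicate 3). Osr1, Grem1 and Hand2 did not overlap between genotypes. The direct targets of the pathway did: Gli1 was 1.80, 2.76 and 2.74 TPM against 1.49, 2.08 and 2.40 TPM (-0.20 ± 0.29), and Ptch1, the Shh receptor, was 4.31, 5.31 and 5.84 TPM against 3.80, 4.28 and 7.04 TPM (-0.06 ± 0.29).

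**Figure D4:**
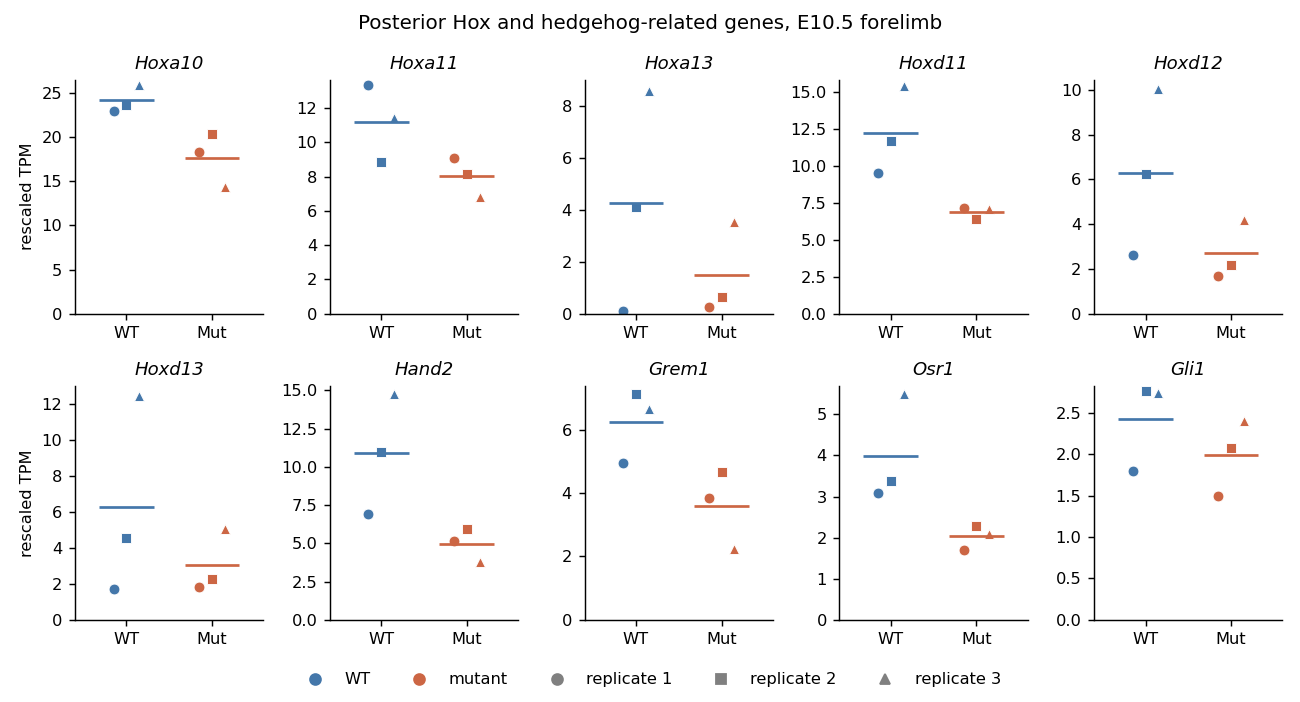
Rescaled TPM of posterior Hox genes and of hedgehog-related genes in the 6 E10.5 forelimb libraries (points are libraries, shapes replicate numbers, bars means). Hoxa10, Hoxd11, Hand2, Grem1 and Osr1 show no overlap between genotypes, while for Hoxa13 and Hoxd13 the spread within WT (0.106 to 8.61 and 1.71 to 12.5) covers the mutant values.

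The other signalling lists held no call. Without WT replicate 1 the median of FGF signalling was -0.21 and that of Wnt signalling -0.19, where all tested genes had -0.02. Without mutant replicate 3 these medians were 0.01 and -0.04, where all tested genes had 0.01. For FGF signalling (13 tested) the median was -0.08, with no member under an unadjusted p of 0.05; Fgf8, the ridge FGF, was 15.2, 8.77 and 11.9 TPM in WT and 25.8, 11.4 and 11.03 TPM in mutants (0.32 ± 0.33), and Fgf10, its mesenchymal counterpart, was 1.82, 1.39 and 2.07 TPM against 1.71, 1.72 and 0.680 TPM (-0.25 ± 0.22). Dusp6, a readout of FGF signalling in the bud, was 47.3, 33.9 and 41.9 TPM against 32.1, 30.8 and 19.98 TPM (-0.57 ± 0.28, unadjusted p = 0.0641; -0.37 without mutant replicate 3), without overlap. BMP signalling (16 tested) had a median of -0.06, and in Wnt signalling 11 of 22 tested genes were higher. In the latter Dkk2, a secreted Wnt antagonist, was 1.79, 1.47 and 1.65 TPM against 0.999, 0.934 and 1.10 TPM (-0.39 ± 0.15, unadjusted p = 0.0219). For the proximodistal and retinoic acid genes (19 tested, median -0.05), Meis1, a proximal marker, was 18.6, 18.9 and 14.5 TPM against 20.1, 19.7 and 21.1 TPM (0.22 ± 0.14), and Shox2, needed for the humerus, was 17.1, 31.8 and 27.3 TPM against 13.1, 18.7 and 5.74 TPM (-1.05 ± 0.52; -0.63 without mutant replicate 3).

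Limb mesenchyme, the tissue in which the Cre acts, depended on both libraries that stand apart. Of 28 tested genes 23 were lower (median -0.20), and 16 were lower without mutant replicate 3 (median -0.06). Without WT replicate 1 the median was -0.36, and without both libraries it was -0.19. Prrx1, the gene whose enhancer drives the Cre, was 32.7, 58.2 and 60.0 TPM in WT and 44.7, 48.2 and 25.7 TPM in mutants (-0.34 ± 0.33, adjusted p = 0.941). Cdh11, a mesenchymal cadherin, was 29.9, 34.7 and 34.4 TPM against 21.4, 28.2 and 18.5 TPM (-0.54 ± 0.19, unadjusted p = 0.0150), with no overlap, and Tbx18 was 5.45, 7.83 and 7.51 TPM against 3.83, 5.58 and 1.69 TPM (-0.84 ± 0.32; -0.49 without mutant replicate 3). The summed level of the list was 391 to 478 TPM in WT, 404 and 438 TPM in mutant replicates 1 and 2 and 262 TPM in mutant replicate 3.

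The proteins of the minor spliceosome were 9 higher and 7 lower of 16 tested (median 0.05, none called). Without overlap 3 were lower (Scnm1, Snrnp35 and Zrsr2, background 5.08%) and none higher. Of the proteins that sit with U11, Snrnp25 was 17.4, 11.9 and 14.6 TPM in WT and 16.1, 14.7 and 17.3 TPM in mutants (0.14 ± 0.17), Snrnp35 was 5.64, 5.67 and 6.37 TPM against 5.55, 5.14 and 4.79 TPM (-0.16 ± 0.13), and Snrnp48 was 11.9, 10.2 and 8.64 TPM against 15.5, 11.8 and 12.4 TPM (0.34 ± 0.16). Rnpc3, which bridges U11 and U12, was 12.5, 19.96 and 10.9 TPM against 15.3, 15.6 and 16.6 TPM (0.16 ± 0.18). Scnm1, a protein of the activated minor spliceosome, had the smallest p of the list, at 18.5, 13.6 and 13.8 TPM against 9.45, 11.96 and 9.15 TPM (-0.54 ± 0.16, unadjusted p = 0.00506, adjusted p = 0.816). Ccdc84 had the largest change upward, at 0.596, 2.22 and 2.10 TPM against 3.40, 3.15 and 2.07 TPM (0.60 ± 0.26, unadjusted p = 0.0380), and its change was 0.28 without WT replicate 1. The 7 subunits of SF3b, which both spliceosomes share, had a median of 0.03.

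Genes known to carry a minor intron were taken from a hand-written list of 48, since no genome sequence was used here to scan for such introns. Of 47 tested, 19 were higher and 28 lower, 2 and 4 of them with an unadjusted p under 0.05 (background 2.79% and 2.45%), none was called, and the median was -0.06 with or without mutant replicate 3. Kifap3, a kinesin-associated protein, was 8.03, 9.68 and 10.8 TPM in WT and 6.65, 7.22 and 7.60 TPM in mutants (-0.36 ± 0.13, unadjusted p = 0.0172), with no overlap. Vps16, of the vesicle tethering complexes, was 38.2, 19.9 and 19.7 TPM against 18.4, 13.3 and 16.0 TPM (-0.61 ± 0.23), with WT replicate 1 far above the other libraries. Mapk8, a stress kinase, and Snrpe, a core protein of all spliceosomal particles, lay the other way: Mapk8 was 19.4, 22.6 and 19.1 TPM against 22.8, 29.0 and 25.3 TPM (0.32 ± 0.12), and Snrpe was 158, 160 and 146 TPM against 240, 180 and 246 TPM (0.51 ± 0.20). In all, 4 genes of the list were higher and 8 lower without overlap (background 5.31% and 5.08%).

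Lists of the p53 response, stress, death and cell cycle held no call either. Of 27 tested p53 targets 20 were higher and 7 lower (median 0.08; 2 higher and 1 lower with an unadjusted p under 0.05, background 2.79% and 2.45%). Eda2r, a death receptor and p53 target, was 0.655, 0.872 and 0.584 TPM in WT and 1.24, 1.48 and 1.44 TPM in mutants (0.49 ± 0.14, unadjusted p = 0.00556, adjusted p = 0.820). Every mutant library was above every WT library, at levels near 1 TPM, where counting error is largest and is unknown here. Ccng1, cyclin G1, was 7.95, 9.87 and 7.33 TPM against 9.78, 12.1 and 14.2 TPM (0.47 ± 0.16, unadjusted p = 0.0126), and the lowest mutant lay within the WT range. Pmaip1, a BH3-only death protein, was 3.18, 6.27 and 10.2 TPM against 2.43, 3.25 and 2.41 TPM (-0.92 ± 0.36), and Cdkn1a, the p21 cell cycle inhibitor, was 0.713 to 1.31 TPM in WT and 0.748 to 1.05 TPM in mutants, below the filter. The median was 0.08 for 15 genes of the integrated stress response and -0.06 for 13 apoptosis effectors. For 28 genes of the G1/S transition it was -0.02, and for 30 of G2/M it was -0.01. Mki67, a marker of cycling cells, was 36.0, 60.0 and 51.4 TPM against 44.6, 53.1 and 45.4 TPM (-0.01 ± 0.16), Gins2, a replication factor, was 15.9, 10.3 and 11.8 TPM against 21.6, 16.4 and 23.8 TPM (0.67 ± 0.24), and Bub1b, of the spindle checkpoint, was 41.8, 48.6 and 40.3 TPM against 32.6, 35.6 and 36.3 TPM (-0.31 ± 0.11).

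Cells that do not express the Cre were followed by their own markers. For surface ectoderm 22 of 25 tested genes were higher and 3 lower (median 0.27, and 0.21 without mutant replicate 3), 7 of them without overlap (all higher, against 5.31%), 2 with an unadjusted p under 0.05 and none called. Fermt1, an integrin adaptor, was 1.52, 2.44 and 2.51 TPM in WT and 3.05, 3.19 and 5.01 TPM in mutants (0.58 ± 0.20; 0.40 without mutant replicate 3), and Cldn7, a claudin, was 1.62, 2.41 and 2.42 TPM against 4.49, 3.09 and 6.96 TPM (0.85 ± 0.32; 0.60 without mutant replicate 3). The defining markers were less separated: Trp63 was 4.44, 6.96 and 5.85 TPM against 8.35, 6.89 and 7.40 TPM (0.35 ± 0.17), and Krt14 was 1.94, 3.52 and 6.61 TPM against 2.98, 1.96 and 3.92 TPM (-0.27 ± 0.32). The summed level of the list was 111 to 124 TPM in WT, 144 and 117 TPM in mutant replicates 1 and 2 and 196 TPM in mutant replicate 3. Endothelial genes (18 tested) had a median of -0.12, with Pecam1 at 4.90, 7.06 and 5.73 TPM against 4.94, 5.75 and 4.88 TPM, and muscle precursor genes (6 tested) had a median of -0.03. Summed levels were 57.5 to 74.7 TPM against 65.3 to 68.4 TPM for endothelium and 24.6 to 31.8 TPM against 24.3 to 26.7 TPM for muscle precursors, and no marker of either list was at 0 in all 6 libraries. Cytosolic ribosomal protein genes were mostly higher (77 of 81, 8 with an unadjusted p under 0.05, background 2.79%, median 0.25), with a median of 0.11 without mutant replicate 3, of 0.42 without WT replicate 1 and of 0.04 on the deposited scale.

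**Figure D5:**
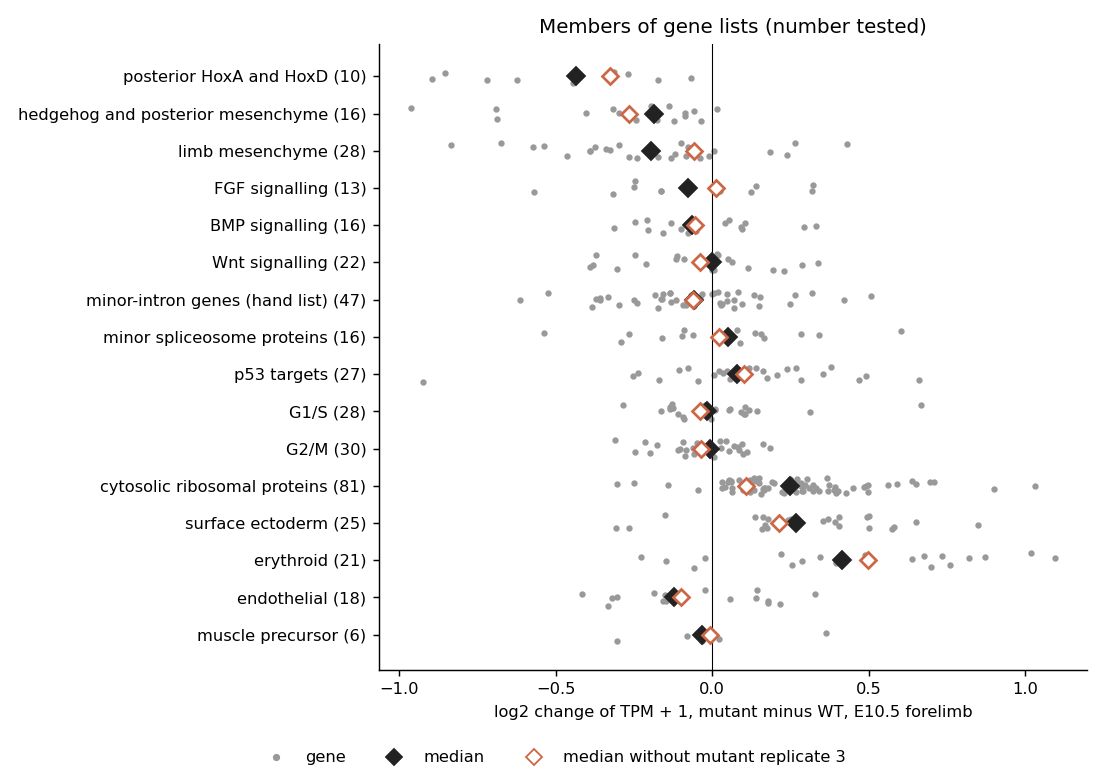
Log2 change of every tested member of 16 gene lists in E10.5 forelimb (grey points), with the median over all 6 libraries (black) and without mutant replicate 3 (open). Posterior HoxA and HoxD genes have the lowest median (-0.43, then -0.33) and erythroid genes the highest (0.41, then 0.50), and the limb mesenchyme median moves from -0.20 to -0.06.

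The forelimb effect was then set against that in hindlimb and at the later stage. No gene had an effect that differed between E10.5 forelimb and hindlimb at an adjusted p of 0.05 (0% of 11955 genes; 298 at an unadjusted p under 0.05). At E11.5, where the labels do not mention the trimming of 3 nucleotides recorded for E10.5 reads, 194 genes passed in forelimb (1.74% of 11126), 53 higher and 141 lower. None of them was called at E10.5 in the fit of 12 libraries. Of the 53 genes that rose at E11.5, 49 were tested at E10.5, where 27 had the same sign and 5 the same sign with an unadjusted p under 0.05 (background 2.79%; median 0.02, and 0.03 without mutant replicate 3). Of the 141 that fell, 137 were tested, and 86 had the same sign. The same sign with an unadjusted p under 0.05 was found for 12 (background 2.45%), among them Rnu11 itself and Gm28872, which holds Rnu11 in antisense. The median of the 137 was -0.05, and -0.06 without mutant replicate 3. Over all tested genes 6459 were higher and 5492 lower. Pde6d, which carries lipid-modified proteins to cilia, was 7.62, 5.77 and 6.09 TPM in WT and 3.50, 3.40 and 4.24 TPM in mutants at E10.5 (-0.66 ± 0.14, unadjusted p = 0.000481), against -0.91 at E11.5. Kcnj2, a potassium channel, was 2.10, 1.84 and 2.04 TPM against 1.05, 1.19 and 0.784 TPM (-0.58 ± 0.13, unadjusted p = 0.000753), against -0.73. Both were called in E10.5 forelimb in the limma fit of all 24 libraries (adjusted p = 0.0213 and 0.0233). Glrb, a glycine receptor subunit, was 8.34, 6.59 and 5.22 TPM against 3.59, 3.83 and 2.83 TPM (-0.79 ± 0.20, adjusted p = 0.707), and none of these 3 overlapped between genotypes. Eda2r and Ccng1 rose most at E11.5 (2.03 and 1.63, limma adjusted p = 0.000473 and 0.00266), and Aen, a p53-induced nuclease, rose by 0.92; at E10.5 Aen was 13.9, 9.74 and 8.68 TPM in WT and 11.3, 10.51 and 10.47 TPM in mutants (0.02 ± 0.17). After Rnu11, the largest E11.5 fall was that of Rpl28, a ribosomal protein gene (-2.59). At E10.5 Rpl28 was 88.8, 70.0 and 334 TPM in WT and 70.4, 68.8 and 226 TPM in mutants, where replicate 3 was the highest of its group in both genotypes and the groups overlapped (-0.31 ± 0.76).

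The effect differed between E10.5 and E11.5 forelimb, by the interaction term of a fit of all 24 libraries, for 8 genes (0.0645% of 12399). Levels given here, at both stages, are on the scale of all 24 libraries. For Eda2r the effect at E10.5 was 1.69 lower on the log2 scale (-1.69 ± 0.22, adjusted p = 0.00181), with E11.5 levels of 0.474 to 0.588 TPM in WT and 3.75 to 7.71 TPM in mutants on the scale of all 24 libraries. Wsb2, a subunit of a ubiquitin ligase, was 6.32, 5.76 and 6.30 TPM in WT and 3.05, 4.04 and 3.86 TPM in mutants at E10.5, and 2.79 to 3.80 TPM against 4.41 to 5.37 TPM at E11.5. The small GTPase Rab8a, which directs vesicles to cilia and membranes, was 20.6 to 23.6 TPM in WT and 14.6 to 15.8 TPM in mutants at E10.5, but 7.65 to 11.51 TPM against 12.5 to 14.4 TPM at E11.5. In both genes the order of the genotypes turned between the stages without overlap at either. Wsb2 was also called in E10.5 forelimb in the fit of all 24 libraries. Prkar2a, a regulatory subunit of protein kinase A, was 10.1 to 10.7 TPM in WT and 6.08 to 7.81 TPM in mutants at E10.5, and 4.61 to 5.79 TPM against 7.09 to 10.2 TPM at E11.5. Ap4s1, a subunit of an adaptor complex, was 4.76 to 5.62 TPM against 5.74 to 6.59 TPM at E10.5 and 5.45 to 5.90 TPM against 2.96 to 3.13 TPM at E11.5. The snoRNA gene Snora78 was 52.8 to 254 TPM against 243 to 520 TPM at E10.5, and 690 to 1132 TPM against 237 to 389 TPM at E11.5. The remaining 2 were Gm28037 and Gm17530, described above. In this fit too, Gm28037 met the filter only through the E10.5 forelimb WT group, so its p-value is no support for a difference.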

How the data were processed

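Total RNA of dissected mouse limb buds was sequenced from stranded libraries, per the labels and the series' design text. The authors deposited TPM values per gene symbol (38019 symbols, summing to 1000000 per library), so read depth is unknown and no counting error can be given. Alignment used HISAT2 on mm10, per the submitters' processing notes; for the quantifier, annotation and counted strand the sources used here name nothing. E10.5 reads lost 3 nucleotides by trimming, per the labels. Types and coordinates came from GENCODE M21 (GRCm38), which matched 36287 symbols, 21083 of them nuclear protein-coding. Libraries were scaled to share a median log2 level over the 4168 genes reaching 5 TPM in all 12 E10.5 libraries (3518 genes for 24). Genes reaching 1 TPM in 3 or more libraries were tested on log2(TPM + 1) by limma 3.58.1 in R 4.3.3, using its intensity trend, in 1 fit of the 12 libraries (8 residual degrees of freedom). The two-sided p-values were adjusted by Benjamini and Hochberg's method, with a threshold of 0.05. The difference between stages was an interaction term over 24 libraries. Rnu11 was also tested by exact permutation.

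The comparison, its gene lists and its tests were chosen with earlier results of these data known, so lists were described by counts and medians and were not tested. Named genes are Rnu11, every call, the 8 highest and 8 lowest changes under the rule given in the text, up to 4 members of a list by unadjusted p with members that define it, and genes called at E11.5. Gm28872, Rpl24, Zrsr2, Ccdc84, Pde6d, Kcnj2, Glrb and the E10.5 values of genes singled out in mutant replicate 3 were named after their values were seen. Alternatives were the deposited scale, nuclear protein-coding genes only, rescaling over genes with 20 TPM or more, a pseudocount of 0.1, no filter, 6 or 24 libraries, no trend, library weights, blocks by replicate number, and leaving out single libraries; combinations with mutant replicate 3 removed, and library weights with 6 libraries, were chosen after seeing the data. The fit was run on simulated data with independent values and the same spread of a gene in all 12 libraries. Apart from a scale factor no simulated library stood apart, so this does not show how the fit deals with mutant replicate 3 or WT replicate 1. Sequences are from GENCODE M21 (Rnu11) and RefSeq (promoters). Scripts used Python 3.11.15 and figures were drawn with matplotlib.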

Additional observations from a re-analysis of the deposited data

Results flagged for a closer look

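The mutant effect differed between E10.5 and E11.5 forelimb for 8 genes by the limma interaction term over 24 libraries, and the values here are the E10.5 effect minus the E11.5 effect on the log2(TPM + 1) scale. It was higher at E10.5 for Gm17530 (6.63), Snora78 (3.54) and Ap4s1 (0.91). It was lower at E10.5 for Gm28037 (-6.35), Eda2r (-1.69), Prkar2a (-1.21), Wsb2 (-1.08) and Rab8a (-0.91). The size for Gm28037 was set by the added 1, since the E10.5 forelimb mutants were listed at 0. Gm28037 had an adjusted p of 0.00144, which is no support for a difference, since it met the filter only through the E10.5 forelimb WT group. For the other genes the adjusted p-values of this term ran from 0.00181 for Eda2r to 0.0499 for Prkar2a and Rab8a. The stages also differ in the trimming recorded in the labels, and the part of that in these differences was not tested. Groups of 3 libraries are too small for a check of single outlying values.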

How the results depend on the processing

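Calls in E10.5 forelimb numbered 3. The same 3 genes were called with rescaling over genes of 20 TPM or more and with genotype and replicate number as a random block; 3 were also called on the deposited scale, with or without mutant replicate 3, and with weights over 6 libraries, 2 of them shared with the main 3. They were 0 with nuclear protein-coding genes only, with a pseudocount of 0.1 and with nuclear protein-coding genes without mutant replicate 3, 1 with 6 libraries, without trend or without both WT replicate 1 and mutant replicate 3, 8 with library weights, and 11 without a filter or with all 24 libraries; leaving out 1 library gave 0 to 1. Genes at an unadjusted p under 0.05 numbered 626, and 230 on the deposited scale, 2584 without a filter (29233 genes tested), 1168 with 24 libraries and 1646 with library weights (1495 with 6 libraries). Without mutant replicate 3 they were 154 on the deposited scale and 284 among protein-coding genes, and leaving out 1 library gave 371 to 845. Genes without overlap numbered 1242, and 483 on the deposited scale, 2220 without a filter and 4734 without WT replicate 1 and mutant replicate 3; with 1 library less, when fewer values can overlap, they were 1804 to 3318.

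Effects that differed between limbs numbered 0, and 2 on the deposited scale and 1 with a pseudocount of 0.1. Between stages they numbered 8, and 3 on the deposited scale and 4 without mutant replicate 3. Same-numbered forelimb libraries of the 2 genotypes correlated by 0.0704, 0.142 and 0.0200 in their deviations. Across limbs, same-numbered libraries correlated by 0.106, 0.182 and 0.198 in mutants and by 0.15, 0.0662 and 0.286 in WT. Libraries of unlike number were not compared, so whether the numbers pair libraries was not tested. A random block by genotype and number, chosen after seeing the data, gave 0 genes that differed between limbs (555 at an unadjusted limma p under 0.05). With the number as a replicate block, 0 genes were called in forelimb, and 0 and 8 differed between limbs and between stages.

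Rnu11 kept its direction in all 19 settings that could be run (-2.80 to -1.03) and was called in none. Signs were followed over the settings for 77 named genes. Most of these were picked for an unadjusted limma p under 0.05 in the fit of 12 libraries, so a steady sign was partly fixed by the choice. Not every gene named above was among them. Of the 77, 3 changed sign in some setting, all with changes near 0 or set by 1 library. Rpl28 was 0.38 without WT replicate 3 and ran from -0.88 to 0.38 with 1 library left out. Aen was -0.16 on the deposited scale, -0.059 with rescaling over genes of 20 TPM or more, and ran from -0.11 to 0.20 with 1 library left out. Lage3, called at E11.5, ran from -0.38 to 0.0066. The deposited scale shifted the median of all genes to -0.14, and 27 of 34 list medians kept their sign there, and 24 of 34 without WT replicate 3; the causes of these changes were not tested.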
